A study of Mus musculus with 40 samples.

Results

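The 8 genes described here mark the ependyma and the motile cilia that its cells carry: Foxj1, Ccno, Rsph1, Dynlrb2, Ak8, Ccdc153, Tmem212 and Rarres2. They are 8 of the 23322 named genes measured in mouse nucleus accumbens, and all 8 passed the filter on low values that left 15196 genes to test. They were picked by symbol. Ak8 and Ccno joined the list because their own levels differed in estradiol or cocaine comparisons of these same libraries. Their group differences are therefore given as a description, and no test of them is read as a result. Their correlations with the other genes were tested by permutation, like those of the other pairs. Counts set against all genes are of the other 6, which were also chosen with earlier results of these libraries known. Across libraries these 6 varied together (Spearman's rho of 0.69 to 0.92 in their pairs). A count such as 6 of 6 is therefore not 6 independent results, and the share of all genes beside it is a description. Medians over the 8 include Ak8 and Ccno, so they are a description too, also where the median of all genes stands beside them.

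The ependyma is the sheet of multiciliated cells that lines the brain's ventricles, and the beat of its motile cilia moves cerebrospinal fluid. A motile cilium is built on an axoneme of microtubule doublets around a central pair, with dynein arms that drive bending and radial spokes that carry signals from the central pair to the arms. The transcription factor FOXJ1 switches on many axoneme genes, and in mouse its loss leaves cells without motile cilia. The nucleus accumbens is a part of the ventral striatum that lies close to the lateral ventricle, and most of its neurons are striatal projection neurons.

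The measurements come from C57BL/6J mice, 40 in all, each with its own RNA-seq library made from punches of the left and right nucleus accumbens. The 8 groups, each with 5 mice, were ovariectomized females with estradiol given cocaine, ovariectomized females with estradiol given saline, ovariectomized females with placebo given cocaine, ovariectomized females with placebo given saline, intact females given cocaine, intact females given saline, intact males given cocaine and intact males given saline. Handling for 3 days came first. Cocaine was then given daily, at 20 mg/kg from day 2 to day 6 and at 10 mg/kg on the flanking days, 1 and 7. Tissue was taken after a withdrawal period. The length of that period, the mice's ages and the estradiol dose are not given in the sources used here. The study's title concerns the greater sensitivity of females to cocaine.

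Values are treated as TPM, transcripts per 1000000, because each library's values sum to 1000000. TPM is a level per transcript length within a library. The sum alone does not show that these values were scaled by transcript length, and how they were made is not given in the sources used here. TPM keeps no read depth, so the depth behind each value is unknown. In 4 libraries the median correlation with the other libraries was under 0.93: estradiol cocaine mice 126 and 134, placebo saline mouse 137 and male cocaine mouse 67. In those 4, ribosomal protein genes held 31.6%, 23.2%, 19.6% and 25.2% of all TPM, against at most 17.9% in the other 36. The same 4 had the highest level of genes with short transcripts relative to long ones: the median of genes under 1000 bases exceeded that of genes of 3000 bases or more by 3.13, 3.47, 3.11 and 2.65 on the log2 scale, against 0.58 to 2.08 in the other 36. The library labelled male cocaine 69 carries a code for the male saline group in its description and is kept under its title. Ovariectomized mice are numbered 121 to 140 and intact mice 61 to 80, so animal number and surgery change together, and no label names a cohort. The labels name separate mice, and p-values of group differences judge them against the spread between mice within the 8 groups.

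Promoter sequence was at hand for 5 of the 8 genes, and these 5 are shown because they include genes whose levels varied together across libraries (Dynlrb2, Ccdc153 and Tmem212) and those that did not follow them (Ccno and, less closely, Ak8). Each window runs from 250 bases before to 50 bases after the RefSeq start on GRCm38.p6, written 5′ to 3′ on the gene's own strand. The windows are chr8:116504765-116505064 on the plus strand for Dynlrb2, chr9:44240427-44240726 plus for Ccdc153, chr13:112987552-112987851 plus for Ccno, chr3:27896319-27896618 minus for Tmem212 and chr2:28699911-28700210 plus for Ak8. Capitals mark GTTGCC, the core of the X-box that RFX factors bind, or the forkhead motif TGTTTNC, each searched on both strands, with no overlap between them here.
Dynlrb2: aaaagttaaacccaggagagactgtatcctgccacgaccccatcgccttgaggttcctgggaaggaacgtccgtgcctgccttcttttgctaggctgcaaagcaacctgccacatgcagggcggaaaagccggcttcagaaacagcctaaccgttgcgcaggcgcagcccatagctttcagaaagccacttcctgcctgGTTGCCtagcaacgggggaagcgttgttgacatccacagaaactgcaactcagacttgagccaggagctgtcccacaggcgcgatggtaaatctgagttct
Ccdc153: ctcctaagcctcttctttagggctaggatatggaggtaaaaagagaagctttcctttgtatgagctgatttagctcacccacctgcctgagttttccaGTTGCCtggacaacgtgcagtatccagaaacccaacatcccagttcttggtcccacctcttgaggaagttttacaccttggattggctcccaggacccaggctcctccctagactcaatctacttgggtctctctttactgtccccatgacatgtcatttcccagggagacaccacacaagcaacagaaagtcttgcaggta
Ccno: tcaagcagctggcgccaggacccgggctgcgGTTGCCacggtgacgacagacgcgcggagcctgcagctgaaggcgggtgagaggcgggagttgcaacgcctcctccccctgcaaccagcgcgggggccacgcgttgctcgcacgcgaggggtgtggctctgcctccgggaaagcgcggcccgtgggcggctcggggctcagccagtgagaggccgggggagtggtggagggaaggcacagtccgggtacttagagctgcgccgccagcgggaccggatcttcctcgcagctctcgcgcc
Tmem212: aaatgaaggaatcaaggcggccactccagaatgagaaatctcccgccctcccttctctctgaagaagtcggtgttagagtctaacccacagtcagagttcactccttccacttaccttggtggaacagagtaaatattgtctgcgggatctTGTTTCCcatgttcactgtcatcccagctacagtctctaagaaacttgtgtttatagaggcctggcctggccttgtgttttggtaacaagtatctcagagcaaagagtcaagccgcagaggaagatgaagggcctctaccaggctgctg
Ak8: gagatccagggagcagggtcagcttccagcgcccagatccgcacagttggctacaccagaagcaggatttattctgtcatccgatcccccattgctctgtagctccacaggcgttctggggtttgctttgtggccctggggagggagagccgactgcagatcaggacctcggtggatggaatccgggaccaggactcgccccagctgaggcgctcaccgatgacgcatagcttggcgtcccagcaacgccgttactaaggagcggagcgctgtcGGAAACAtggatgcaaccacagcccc
GTTGCC occurred once in each of the Dynlrb2, Ccdc153 and Ccno windows, and 12.5% of all 32851 promoter windows hold it. TGTTTNC occurred once in the Tmem212 window and once, on the opposite strand as GGAAACA, in the Ak8 window, and 20.5% of all windows hold it. The match lay 51 bases before the start in Dynlrb2, 152 before it in Ccdc153, 219 before it in Ccno and 99 before it in Tmem212, and at base 25 of the transcribed stretch in Ak8. The Ccno window was 72% G and C, against a median of 52.7% over all windows. These matches describe letters only.

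On GENCODE M21 (GRCm38), Foxj1 lies at chr11:116330704-116335399 on the minus strand. Rsph1, at chr17:31255019-31277383 on the minus strand, is overlapped by the antisense gene AC154652.1, and Rarres2, at chr6:48569696-48572789 on the minus strand, by Lrrc61 on the plus strand. Ak8 spans a microRNA gene and 2 processed pseudogenes, and Tmem212 a snoRNA gene on the opposite strand. Whether the counting used strand is not given in the sources used here, so the values of these 4 genes may hold reads of their neighbours.

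The genes were expressed at low to moderate levels. Rarres2, which encodes the secreted attractant chemerin, was highest at a mean of 42.4 TPM over the 40 libraries, with a range of 15.0 to 167 TPM. Ccdc153, a marker of mouse ependymal cells, averaged 10.2 TPM and ranged from 0.218 to 51.3 TPM. Tmem212, a membrane protein gene used as an ependymal marker, also averaged 10.2 TPM, with 52.2 TPM at the top, and was listed at 0 in intact female cocaine mouse 70.
The structural genes came next. Rsph1, a component of the radial spoke head, averaged 9.08 TPM and stayed between 3.80 and 15.8 TPM. Dynlrb2, a dynein light chain of the roadblock type, averaged 6.20 TPM, reached 28.3 TPM and was listed at 0 in male cocaine mouse 67. Ak8, an adenylate kinase found in motile cilia, was lowest at 2.45 TPM, with a range of 0.906 to 4.64 TPM. Both regulators lay between these: Foxj1 averaged 8.86 TPM (1.72 to 20.8 TPM), and Ccno, the cyclin that acts in centriole amplification of multiciliated cells, averaged 5.26 TPM (2.22 to 9.81 TPM).

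Among the 8 genes, spread between mice of a group was widest for Tmem212, Ccdc153 and Dynlrb2 and narrowest for Ccno and Ak8. The within-group SD on the log2(TPM + 0.5) scale was 1.42 for Tmem212, 1.34 for Ccdc153 and 1.14 for Dynlrb2, which stand at the 99.3, 99.2 and 98.8 percentile of all tested genes. It was 0.69 for Rarres2, 0.63 for Foxj1 and 0.50 for Rsph1, with a median of 0.53 over all tested genes. Rsph1 lay below that median, at the 42.2 percentile, as did Ccno, at 0.43, and Ak8, at 0.38. Dynlrb1, the more widely expressed paralog of Dynlrb2, lay between 358 and 771 TPM with an SD of 0.26. Group membership took up 19.9% of the variance of Rsph1 and 39.1% of that of Rarres2, the lowest and highest of the 8, against 25.8% for the median gene. These shares are not corrected for fitting 8 group means to 40 libraries, so they lie above 0 even where groups do not differ.

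**Figure D1:**
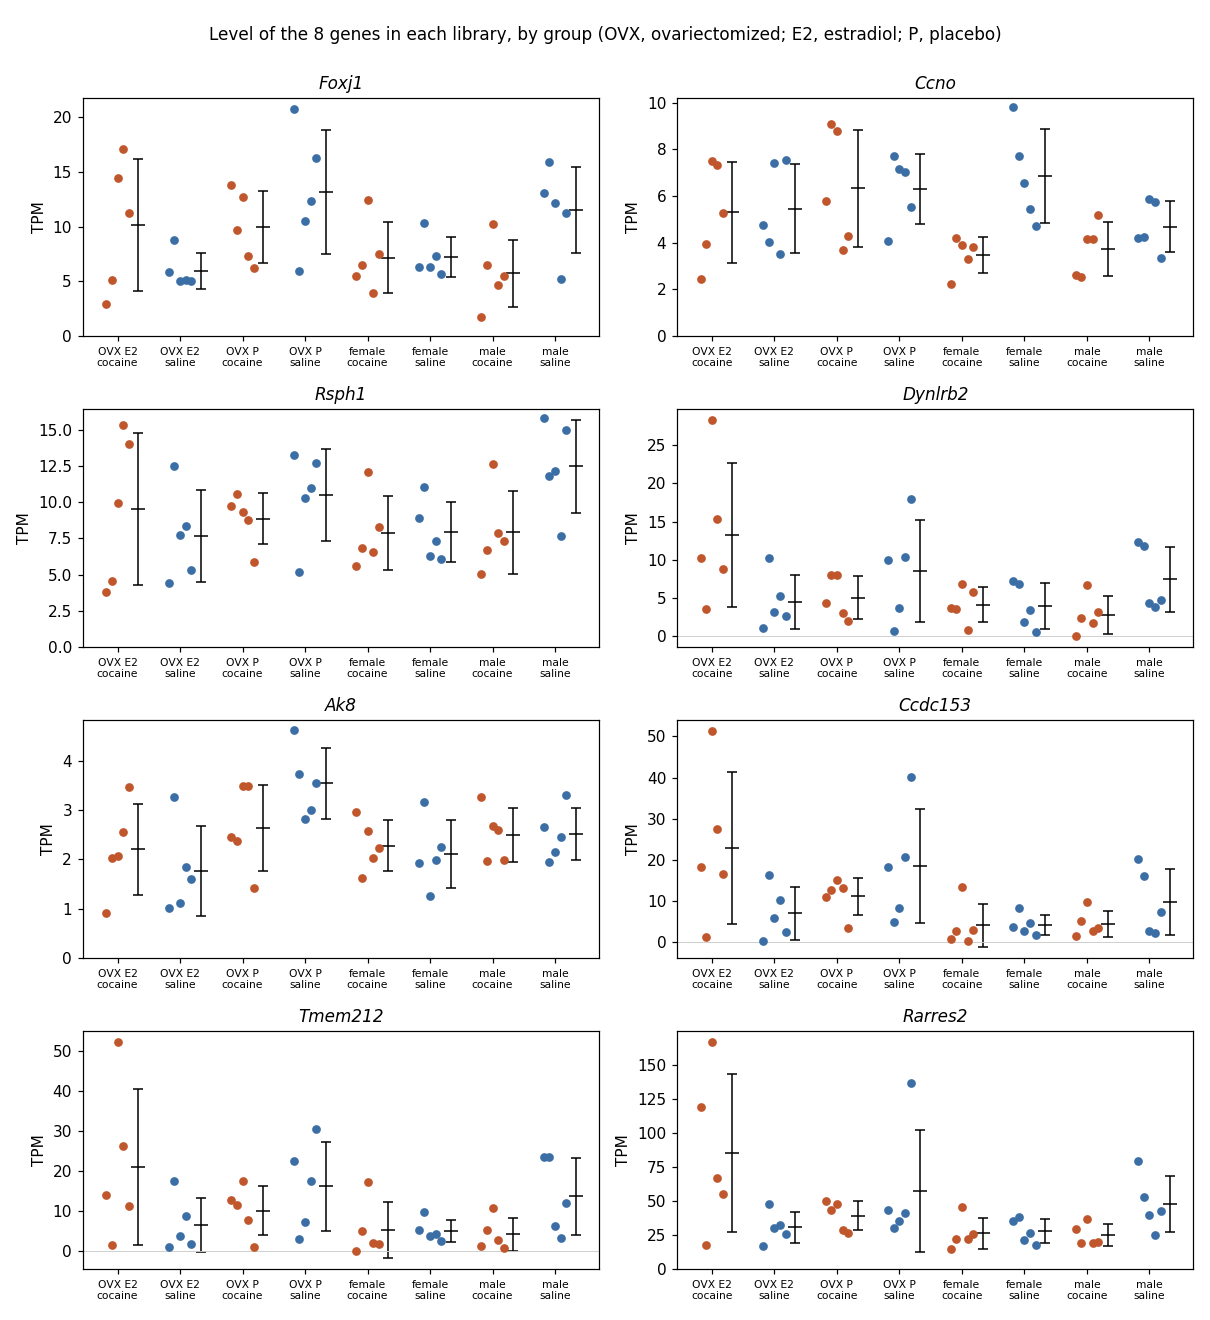
Level in TPM (vertical axes, each with its own scale) of each gene in each of the 40 libraries, by group; points are libraries, orange for cocaine and blue for saline, and the black mark with bars is the mean ± SD of 5. The estradiol cocaine group holds the highest Dynlrb2, Ccdc153, Tmem212 and Rarres2 library (mouse 134), and Ccno is lower in every intact female given cocaine than in any given saline.

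When the group means of a gene were put in order, neighbouring groups differed by less than the larger of their SDs in every case but the top of the Ak8 order. Ak8 averaged 2.64 ± 0.88 TPM in placebo cocaine mice, the next highest group, and 3.54 ± 0.72 TPM in placebo saline mice, the highest (SD, n = 5 each). The highest mean was in estradiol cocaine mice for Dynlrb2 (13.2 ± 9.41 TPM), Ccdc153 (23.0 ± 18.5 TPM), Tmem212 (21.0 ± 19.5 TPM) and Rarres2 (85.3 ± 58.4 TPM). It was in placebo saline mice for Foxj1 (13.2 ± 5.64 TPM), in male saline mice for Rsph1 (12.5 ± 3.20 TPM) and in intact female saline mice for Ccno (6.84 ± 2.01 TPM).

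The first question was how these genes differed between cocaine and saline mice in each of the 4 conditions. In ovariectomized mice with estradiol, 6 of the 6 genes had a higher mean log2 level with cocaine than with saline, while 14.8% of all tested genes did. None passed the test: limma called 0 of 6, as it called 0% of all genes, and 3 of 6 were higher at an unadjusted p under 0.05, against 2.18% of all genes. At the same threshold 39.5% of all genes, and 0 of the 6, were lower. The median difference of the 8 was 0.86 on the log2 scale, and that of all genes was -0.56.
Rarres2 measured 119, 17.8, 167, 67.1 and 55.3 TPM in the estradiol cocaine mice (126, 128, 134, 136 and 140), against 16.6, 47.6, 29.9, 32.7 and 26.1 TPM in the estradiol saline mice (122, 124, 130, 132 and 138). All cocaine mice but 128 were above all saline mice. The difference was 1.19 ± 0.41 (SE, log2), with limma's adjusted p at 0.0946. With each library's share of ribosomal protein genes as a covariate it was 0.63, at an unadjusted p of 0.106.
Ccdc153 measured 18.2, 1.11, 51.3, 27.6 and 16.6 TPM in the same cocaine mice, against 0.218, 16.3, 5.79, 10.3 and 2.47 TPM in the saline mice. Again only mouse 128 lay within the saline range. The difference was 1.65 ± 0.79 (SE, log2; limma's adjusted p 0.113).
Dynlrb2 measured 10.2, 3.53, 28.3, 15.4 and 8.77 TPM with cocaine, against 1.14, 10.3, 3.17, 5.29 and 2.68 TPM with saline. The groups overlapped in 3 cocaine mice, of which 126 was just below the highest saline mouse, 124. The difference was 1.45 ± 0.66 (SE, log2; limma's adjusted p 0.103).
Tmem212 measured 14.1, 1.43, 52.2, 26.1 and 11.1 TPM with cocaine, against 1.01, 17.4, 3.62, 8.60 and 1.74 TPM with saline, so that mice 134 and 136 stood above all saline mice. The difference was 1.53 ± 0.85 (SE, log2; limma's adjusted p 0.155).
The differences of the other 4 genes were smaller. Foxj1 differed by 0.52 ± 0.39, Rsph1 by 0.19 ± 0.32, Ak8 by 0.26 ± 0.26 and Ccno by -0.08 ± 0.28 (SE, log2).

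Transcript length ran alongside these values. Dynlrb2 (521 bases), Rarres2 (706), Tmem212 (716) and Ccdc153 (800), by the median of their coding transcripts, are the short members, and Rsph1 (1190), Ak8 (1567), Ccno (1875) and Foxj1 (2623) the longer ones. In the same comparison the median difference over all tested genes was 0.25 for the 1162 genes under 1000 bases, -0.45 for the 6959 genes from 1000 to under 3000 bases and -0.74 for the 6134 genes of 3000 bases or more. Estradiol cocaine mice 126 and 134 are among the 4 libraries that stood apart. Without those 4, the differences were 0.48 for Rarres2, 0.95 for Ccdc153, 1.03 for Dynlrb2, 0.84 for Tmem212 and 0.74 for Foxj1, and 0 of the 6 were at an unadjusted p under 0.05, against 1.32% of all genes higher. With the ribosomal protein share as a covariate Foxj1 alone of the 6 was, against 1.17% of all genes higher. The part of transcript length in the members' differences was not tested. In bulk tissue, fewer cells of a type and less RNA per cell cannot be told apart.

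The calls depended on single mice, as did the counts at an unadjusted p under 0.05. Without saline mouse 122, 124, 130, 132 or 138, 1, 4, 2, 3 and 1 of the 6 were higher at that threshold. The shares of all genes higher were 2.18%, 2.43%, 1.55%, 1.01% and 1.65%. Without cocaine mouse 126 or 134, 3 and 1 of the 6 were higher, against 1.11% and 0.605% of all genes. Without estradiol cocaine mouse 128, in which Ccdc153 and Tmem212 were lowest of the group, limma called 4 of the 6 higher. These were Dynlrb2, Ccdc153, Tmem212 and Rarres2 (adjusted p 0.0495 to 0.0498), among 3624 of 15196 genes called in either direction. The called genes were not split by direction. At an unadjusted p under 0.05 in that fit, 4 of the 6 and 3.32% of all genes were higher, and 0 of the 6 and 50.9% of all genes lower. Without mouse 136 or mouse 140 limma called Rarres2 alone among the 6 (adjusted p 0.0345 and 0.0379), among 6105 and 5898 genes called in either direction. At an unadjusted p under 0.05, 1 and 2 of the 6 were higher, against 3.07% and 2.92% of all genes. At that threshold 52.3% and 52.9% of all genes were lower.

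**Figure D2:**
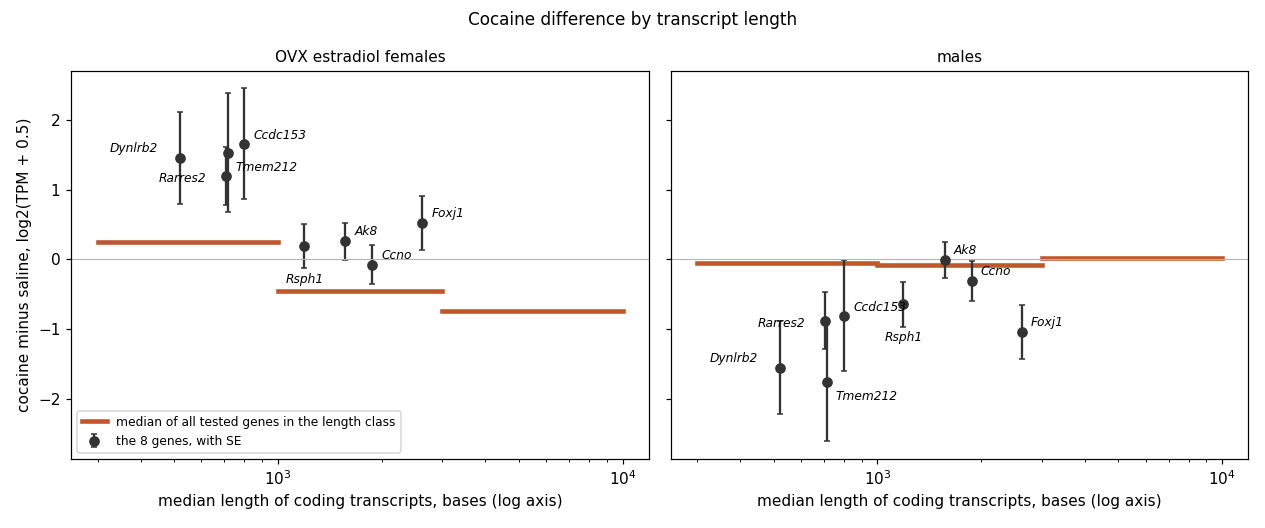
Cocaine minus saline on the log2(TPM + 0.5) scale (vertical axis) against the median length of coding transcripts in bases (log axis), for ovariectomized estradiol females and for males; points are the 8 genes with SE and bars the medians of all tested genes in 3 length classes. In estradiol females the 4 members under 1000 bases lie between 1.19 and 1.65 and the class medians step down from 0.25 to -0.74; in males the class medians lie between -0.08 and 0.03.

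In ovariectomized mice with placebo, 6 of the 6 genes had a lower mean with cocaine, against 25.8% of all genes. By limma's adjusted p, 0 of 6 and 0% of all genes were called, and 0 of 6 were at an unadjusted p under 0.05, against 0.823% of genes. Tmem212 had the largest difference, -0.66 ± 0.85, and Ccno the smallest, -0.04 ± 0.28 (SE, log2). The median of the 8 was -0.34, against 0.15 over all genes, and with array weights it turned to 0.25. By length class the medians of all genes were -0.13 under 1000 bases, 0.10 from 1000 to under 3000 bases and 0.22 at 3000 bases or more. All 10 striatal projection neuron markers had a lower mean with cocaine, with sums of 3680 to 6731 TPM in placebo cocaine mice and 3939 to 7767 TPM in placebo saline mice. Their mean sum was lower with cocaine in the other conditions too. It was 4879 against 5654 TPM in estradiol mice, 4434 against 5793 TPM in intact females and 5029 against 5569 TPM in males. Septal neuron markers had a higher mean sum with cocaine in placebo mice, 57.1 against 33.4 TPM. The parts of length and of these markers were not tested. Foxj1 averaged 9.96 ± 3.30 TPM in placebo cocaine mice and 13.2 ± 5.64 TPM in placebo saline mice (SD, n = 5 each), with overlapping ranges.

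The difference of the cocaine responses between estradiol and placebo mice was tested as an interaction. It was above 0 for 6 of the 6 genes, against 16.1% of all genes, and the median of the 8 was 1.19 against -0.71 over all genes. The interaction was called by limma for 0 of 6 and 0% of all genes, and Rarres2 alone was above 0 at an unadjusted p under 0.05, against 2.11% of genes. At that threshold 29.2% of all genes, and 0 of the 6, were below 0. Rarres2 responded 1.53 ± 0.58 higher with estradiol than with placebo (SE, log2; limma's adjusted p 0.156). Tmem212 had the largest value, 2.19, with a 95% interval of -0.25 to 4.62.

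In intact females the mean of Ccno was lower with cocaine, and 1 of the other 6, Dynlrb2, had a higher mean, against 57.9% of all genes. Ccno measured 2.22, 4.19, 3.92, 3.29 and 3.80 TPM in intact female cocaine mice (70, 71, 72, 79 and 80), against 9.81, 7.70, 6.56, 5.44 and 4.70 TPM in intact female saline mice (64, 65, 66, 77 and 78). Every cocaine mouse was below every saline mouse. The difference was -0.87 ± 0.28 (SE, log2). Of all genes, 0.151% were lower without overlap, and since cocaine comparisons brought Ccno into the list nothing is read from that share.
Limma called 0 of the 6 in intact females and 0% of all genes, and 0 of 6 were at an unadjusted p under 0.05, against 0.954% of genes. The median of the 8 was -0.10, and with array weights it turned to 0.25. Among the 7 genes other than Ccno, differences ran between -0.75 (Tmem212, SE 0.85) and 0.19 (Dynlrb2, SE 0.66). Rsph1 averaged 7.87 ± 2.54 TPM in intact female cocaine mice and 7.91 ± 2.07 TPM in intact female saline mice, a log2 difference of -0.02 with a 95% interval of -0.67 to 0.62. Foxj1 averaged 7.18 ± 3.25 TPM in intact female cocaine mice and 7.20 ± 1.84 TPM in intact female saline mice (SD, n = 5 each). Mouse 72 was highest of the cocaine group for Foxj1 (12.5 TPM), Rsph1 (12.1 TPM), Dynlrb2 (6.84 TPM), Ccdc153 (13.3 TPM), Tmem212 (17.3 TPM) and Rarres2 (45.6 TPM), but not for Ccno (3.92 TPM).

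In males 6 of the 6 genes had a lower mean with cocaine, against 55.5% of all genes. None was called: limma's adjusted p passed 0 of 6 and 0% of all genes. Foxj1, Rsph1, Dynlrb2, Tmem212 and Rarres2 were lower at an unadjusted p under 0.05, 5 of 6, against 0.711% of all genes; earlier results of these libraries already showed genes of this kind low in cocaine males, so the count supports nothing on its own. The median difference of the 8 was -0.84, against -0.03 over all genes.
Foxj1 measured 1.72, 6.45, 10.3, 4.70 and 5.51 TPM in male cocaine mice (67, 68, 69, 75 and 76), against 13.1, 15.9, 12.2, 5.20 and 11.3 TPM in male saline mice (61, 62, 63, 73 and 74). The groups overlapped through saline mouse 73, the lowest of its group. The difference was -1.04 ± 0.39 (SE, log2; limma's adjusted p 1.00).
Tmem212 measured 1.13, 5.22, 10.8, 2.65 and 0.689 TPM in male cocaine mice, against 23.5, 23.5, 6.14, 3.14 and 11.8 TPM in male saline mice. The library labelled male cocaine 69 was the highest of the cocaine mice, and 3 cocaine mice were below all saline mice. The difference was -1.75 ± 0.85 (SE, log2).
Dynlrb2 was 0, 2.37, 6.70, 1.67 and 3.11 TPM in male cocaine mice, against 12.4, 11.8, 4.35, 3.88 and 4.77 TPM in male saline mice. Only the library labelled male cocaine 69 reached the saline range. The difference was -1.55 ± 0.66 (SE, log2), in which mouse 67, listed at 0, depends on the pseudocount.
Rarres2 averaged 25.0 ± 8.05 TPM in male cocaine mice and 47.8 ± 20.3 TPM in male saline mice, a difference of -0.88 ± 0.41, and Rsph1 7.90 ± 2.84 TPM in male cocaine mice and 12.5 ± 3.20 TPM in male saline mice, a difference of -0.65 ± 0.32 (SD, n = 5 each; differences in log2 with SE). Ccdc153 (-0.81 ± 0.79), Ccno (-0.31 ± 0.28) and Ak8 (-0.01 ± 0.26) completed the 8.

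A pair of male cocaine libraries bear on these values in opposite directions. Without the library labelled male cocaine 69, the median difference of the 8 was -1.07, with Foxj1 at -1.28, Tmem212 at -2.20 and Dynlrb2 at -1.95. Without male cocaine mouse 67, which is among the 4 libraries that stood apart, the median was -0.62, with Foxj1 at -0.71, Tmem212 at -1.50 and Dynlrb2 at -0.99, and Rarres2 alone remained at an unadjusted p under 0.05. Septal neuron markers, from tissue that borders the same ventricle, summed to 9.60 to 88.4 TPM in male cocaine mice and 29.9 to 92.0 TPM in male saline mice, and all 5 had a lower mean with cocaine. Choroid plexus markers summed to 14.4 to 46.2 TPM in male cocaine mice and 27.1 to 69.5 TPM in male saline mice, and 8 of the 10 tested had a lower mean with cocaine. Meningeal and vessel wall markers summed to 18.9 to 70.1 TPM in male cocaine mice and 37.3 to 279 TPM in male saline mice, with 7 of 8 lower. Cortical excitatory neuron markers went the other way, with a mean sum of 298 TPM in male cocaine mice and 205 TPM in male saline mice. The part of these lists in the members' difference was not tested.

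**Figure D3:**
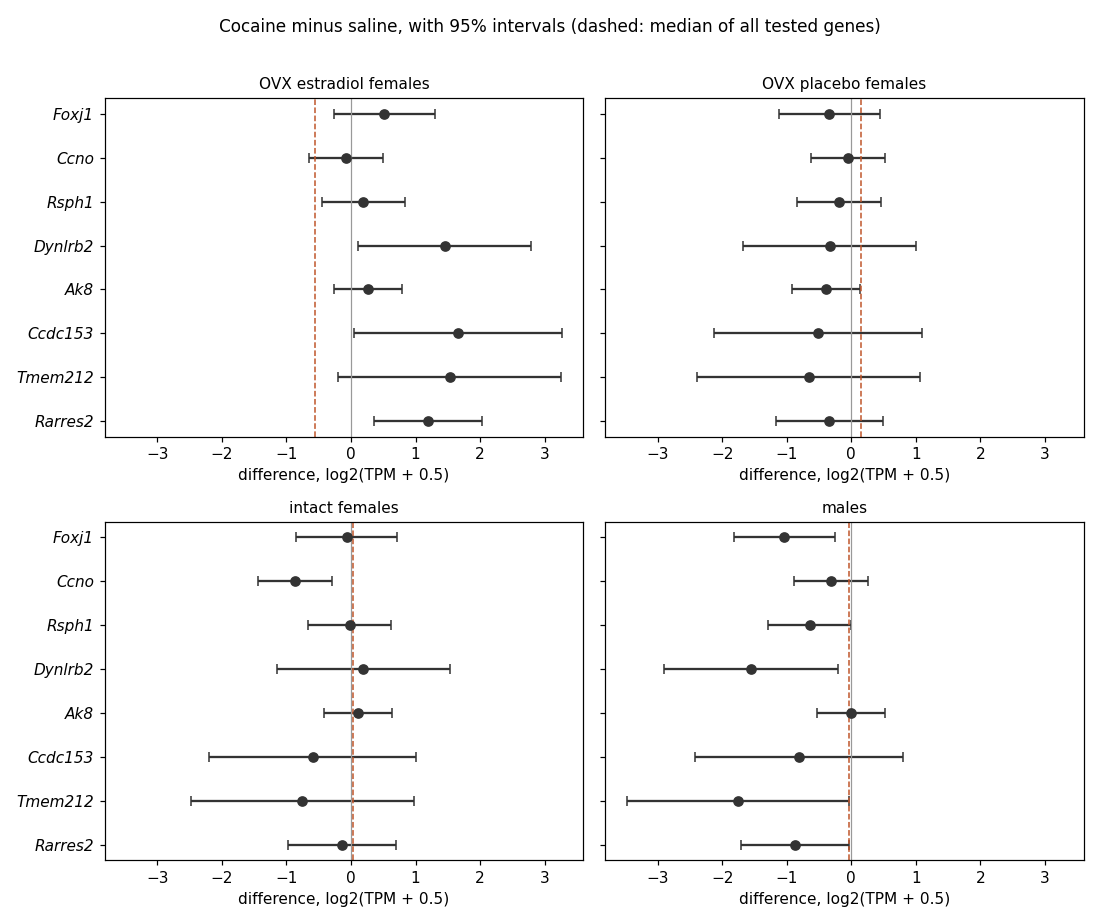
Cocaine minus saline on the log2(TPM + 0.5) scale for each gene in the 4 conditions; points are limma's differences and bars 95% intervals over 5 mice against 5, and the dashed line is the median of all tested genes. In males all 8 points lie at or below 0, and in ovariectomized estradiol females 7 of 8 lie above 0 while the median gene is at -0.56.

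The test of the sex difference in the cocaine response, intact females against males, was above 0 for 6 of the 6 genes, against 59.9% of all genes, with a median over the 8 of 0.68 against 0.05. For this interaction limma called 0 of 6 and 0% of all genes, and 0 of 6 were at an unadjusted p under 0.05, against 0.665% of genes. Dynlrb2 differed by 1.74 with a 95% interval of -0.16 to 3.64 and Foxj1 by 0.97 with an interval of -0.13 to 2.08, so a sex difference in these responses was not shown. Averaged over the 4 conditions, the cocaine difference was below 0 for 6 of the 6 genes, against 82.1% of all genes, with a median over the 8 of -0.12 against -0.10, which array weights turned to 0.16. Limma called 0 of 6 and 0% of all genes in that average, and 0 of 6 were at an unadjusted p under 0.05, against 1.1% of genes. Ccno, as a description, averaged -0.32 ± 0.14 (SE, log2).

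The second question was how these genes differed between estradiol and placebo in ovariectomized mice. In saline mice 6 of the 6 had a lower mean with estradiol than with placebo, against 24.4% of all genes. After adjustment limma called 0 of 6 and 0% of all genes, and 2 of 6 (Foxj1 and Ccdc153) were lower at an unadjusted p under 0.05, against 0.632% of genes. The median difference of the 8, Ak8 and Ccno included, was -0.81, and 0.23 over all genes.
Foxj1 measured 5.87, 8.74, 4.99, 5.11 and 5.03 TPM in estradiol saline mice, against 20.8, 5.99, 10.5, 12.3 and 16.3 TPM in placebo saline mice (121, 123, 129, 131 and 137). Estradiol mouse 124 was above placebo mouse 123, and every other estradiol mouse was below all placebo mice. The difference was -1.01 ± 0.39 (SE, log2; limma's adjusted p 0.737).
Ak8 measured 1.01, 3.27, 1.12, 1.84 and 1.60 TPM in estradiol saline mice, against 4.64, 3.73, 2.82, 3.00 and 3.54 TPM in placebo saline mice. Mouse 124 alone reached the placebo range. The difference was -0.90 ± 0.26 (SE, log2), and as estradiol comparisons brought Ak8 into the list it is a description.
Ccdc153 measured 0.218, 16.3, 5.79, 10.3 and 2.47 TPM in estradiol saline mice, against 18.2, 4.83, 8.24, 20.6 and 40.2 TPM in placebo saline mice, with wide overlap. The difference was -1.65 ± 0.79 (SE, log2; limma's adjusted p 0.737). Tmem212 (-1.45 ± 0.85), Rarres2 (-0.73 ± 0.41), Dynlrb2 (-0.60 ± 0.66), Rsph1 (-0.45 ± 0.32) and Ccno (-0.22 ± 0.28) had the same sign.
Placebo saline mouse 137, also among those 4 libraries, was highest of its group for Ccdc153, Tmem212 (30.3 TPM), Dynlrb2 (17.9 TPM) and Rarres2 (137 TPM); without it the median difference of the 8 was -0.63. By length class the medians of all genes ran from -0.15 under 1000 bases to 0.36 at 3000 bases or more. Cortical excitatory neuron markers summed to 10.3 to 335 TPM in estradiol saline mice and 10.3 to 751 TPM in placebo saline mice, and 6 of 7 were lower with estradiol. Septal neuron markers went the other way, with a mean sum of 51.7 TPM in estradiol saline mice and 33.4 TPM in placebo saline mice. The parts of length and of these markers were not tested. The estradiol and placebo saline groups are also the saline sides of the cocaine comparisons above, so these values are not independent of them.

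In cocaine mice the estradiol difference had no common sign: 4 of the 6 genes were above 0, against 13.9% of all genes. The median of the 8 was 0.22 against -0.49, and -0.05 with array weights. Here too limma called 0 of 6 and 0% of all genes, and 0 of 6 were at an unadjusted p under 0.05, against 15.7% of genes. Dynlrb2 differed by 1.18 ± 0.66 and Rarres2 by 0.80 ± 0.41 (SE, log2), and both 95% intervals span 0, while Ccno and Ak8 each differed by -0.25. By length class the medians of all genes ran from 0.22 under 1000 bases to -0.60 at 3000 bases or more. Averaged over cocaine and saline mice, Foxj1 differed by -0.58 ± 0.27 (SE, log2). In that average limma called 0 of 6 and 0% of all genes, and Foxj1 alone of the 6 was lower at an unadjusted p under 0.05, against 0.645% of genes. Ak8, as a description, averaged -0.57 ± 0.18 (SE, log2).

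Between the sexes, intact females given saline had lower means than males given saline for 6 of the 6 genes, against 29.9% of all genes. Limma called 0 of 6, against 0.0329% of all genes, and 0 of 6 were at an unadjusted p under 0.05, against 1.41% of genes. Rsph1 averaged 7.91 ± 2.07 TPM in intact female saline mice and 12.5 ± 3.20 TPM in male saline mice, a log2 difference of -0.62 with an interval of -1.26 to 0.03. Ccno averaged 6.84 ± 2.01 TPM in intact female saline mice and 4.68 ± 1.09 TPM in male saline mice (SD, n = 5 each), a log2 difference of 0.49, as a description. Cortical excitatory neuron markers summed to 11.2 to 170 TPM in intact female saline mice and 52.5 to 513 TPM in male saline mice, with 7 of 7 lower in females. Septal neuron markers summed to 26.9 to 61.0 TPM in intact female saline mice and 29.9 to 92.0 TPM in male saline mice, with 5 of 5 lower. Meningeal and vessel wall markers summed to 26.9 to 57.2 TPM in intact female saline mice and 37.3 to 279 TPM in male saline mice, with 7 of 8 lower. Choroid plexus markers went the other way, with a mean sum of 59.0 TPM in intact female saline mice and 43.8 TPM in male saline mice. By length class the medians of all genes ran from -0.13 under 1000 bases to 0.21 at 3000 bases or more, and the parts of length and of these markers were not tested.
In cocaine mice 4 of the 6 genes were higher in females, against 81.1% of all genes, and the median of the 8 was -0.03, or 0.21 with array weights. Limma called 0 of 6, against 0.0329% of all genes, and 0 of 6 were at an unadjusted p under 0.05, against 1.36% of genes. Without the library labelled male cocaine 69 that median was 0.18.

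Ovariectomized placebo females given saline had higher means than intact females given saline for 6 of the 6 genes, against 22.2% of all genes, with a median over the 8 of 0.79 against -0.37. Limma called 0 of 6 and 0% of all genes, and Ccdc153 alone of the 6 was higher at an unadjusted p under 0.05, against 2.43% of genes. Ccdc153 averaged 18.4 ± 13.8 TPM in placebo saline mice and 4.14 ± 2.48 TPM in intact female saline mice (SD, n = 5 each), a difference of 1.84 ± 0.79 (SE, log2; limma's adjusted p 0.247). Ak8 averaged 3.54 ± 0.72 TPM in placebo saline mice and 2.12 ± 0.69 TPM in intact female saline mice, a difference of 0.65 ± 0.26 (SE, log2). It is a description, since the placebo saline mice are also a side of the estradiol comparison that brought Ak8 into the list. Cortical excitatory neuron markers summed to 10.3 to 751 TPM in placebo saline mice and 11.2 to 170 TPM in intact female saline mice, with 7 of 7 higher in placebo mice. Meningeal and vessel wall markers summed to 24.6 to 323 TPM in placebo saline mice and 26.9 to 57.2 TPM in intact female saline mice, with 7 of 8 higher. Septal neuron markers went the other way, with a mean sum of 33.4 TPM in placebo saline mice and 40.8 TPM in intact female saline mice. By length class the medians of all genes ran from 0.27 under 1000 bases to -0.57 at 3000 bases or more. The parts of length and of these markers were not tested.

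Across the 40 libraries, 6 of the genes varied together. Foxj1, Rsph1, Dynlrb2, Ccdc153, Tmem212 and Rarres2, grouped after their values were seen, gave Spearman's rho of 0.69 to 0.92 and Pearson's r of 0.53 to 0.91 in their 15 pairs. Over all 28 pairs, adjusted permutation p-values of these 15 were at most 3.73e-05 for rho and 0.00056 for r, and 1e-05 is the smallest unadjusted p that 100000 permutations can give. The same 15 gave rho of 0.54 to 0.91 on deviations from the group means, 0.68 to 0.85 within the 20 intact mice, 0.59 to 0.96 within the 20 ovariectomized mice and 0.75 to 0.90 without the 4 libraries that stood apart.
Ccdc153 and Tmem212 were the closest pair, with r of 0.91 and rho of 0.92 (adjusted permutation p 2.33e-05 and 2e-05), and r of 0.92 without the 2 libraries farthest from the median. Foxj1 and Rsph1, regulator and spoke protein, gave r of 0.83 and rho of 0.82 (adjusted permutation p 2.33e-05 and 2e-05).
Ccno did not follow: its 7 pairs had rho of -0.01 to 0.29 and r of 0.03 to 0.37, and the lowest adjusted permutation p was 0.0911 for rho and 0.0288 for r. Ak8 followed in part. Its rho was 0.51 with Rsph1 and 0.45 with Foxj1 over all libraries (adjusted permutation p 0.00171 and 0.00583), with r of 0.56 and 0.45 (adjusted permutation p 0.0004 and 0.00647). With Foxj1 its rho was 0.65 in the ovariectomized mice and 0.01 in the intact mice, a difference that was not tested.
The libraries at the ends were spread over groups. The mean z-score of the 8 genes was highest in estradiol cocaine mouse 134 (1.40), placebo saline mouse 137 (1.40) and estradiol cocaine mouse 136 (1.21), and lowest in estradiol saline mouse 122 (-1.34), male cocaine mouse 67 (-1.29) and intact female cocaine mouse 70 (-1.12). The share of ribosomal protein genes had a rho of 0.41 with that mean, as a description.

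**Figure D4:**
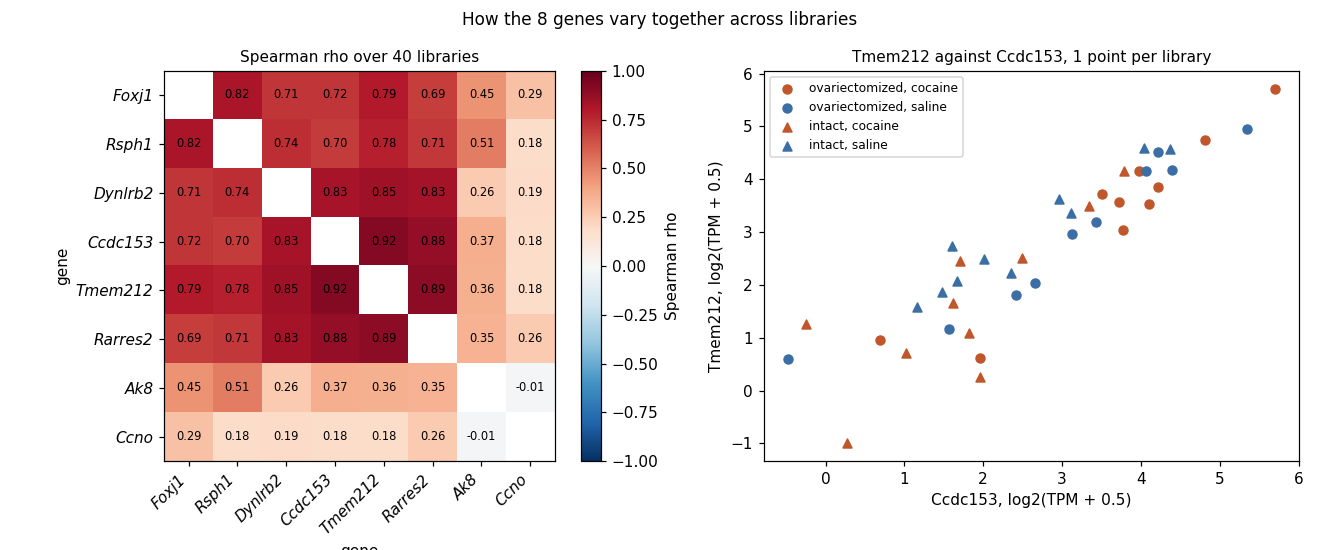
Left, Spearman's rho over 40 libraries for each pair of the 8 genes, from -1 (blue) to 1 (red); right, Tmem212 against Ccdc153 on log2(TPM + 0.5) axes, with circles for ovariectomized and triangles for intact mice, orange for cocaine and blue for saline. The 15 pairs among 6 genes lie at 0.69 or above, the Ccno pairs at 0.29 or below, and cocaine and saline mice run along the same line on the right.

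Outside the list, the genes most like the mean of the 8 over the 40 libraries were 1700026D08Rik, 2410004P03Rik, Got1l1, Ppp1r36, Dnali1, Ccdc33, Sntn, Fam183b, Lrrc23 and Enkur, with rho of 0.88 down to 0.83. Dnali1 is a light intermediate chain of the inner dynein arms, and Sntn encodes sentan of the ciliary tip. Only 48 of the 15188 other tested genes, 0.316%, had a rho of 0.7 or more, and the median gene had -0.16. All 10 are low in level, from a mean of 0.746 TPM for Ccdc33 to 11 TPM for Fam183b, and 4 of the 10 belong to the cilia lists used here.

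Those lists, of cilia parts and of cell types around the ventricle, were compared with the 8 by the same measure. Of 10 tested genes of other ependymal markers, 5 had a rho of 0.5 or more, and the list median was 0.61; the early progenitor and ependymal marker Cd24a had 0.76, while the more abundant Pltp (59.0 TPM) and Vim (34.7 TPM) had -0.03 and 0.18. Of 19 other axoneme genes, 10 did so (median 0.52), with Fam183b at 0.83 and the tektin gene Tekt1 at 0.73. Radial spoke and central pair genes had a median of 0.42 with 5 of 12 at 0.5 or more, of which Dnajb13 was highest at 0.80.
Dynein arm genes were mixed, with a median of 0.18 and 4 of 21 at 0.5 or more. Their most abundant members, Dnalc1 (63.1 TPM), Ccdc39 (18.5 TPM) and Ccdc164 (18 TPM), had rho of -0.28, -0.31 and -0.19. Among regulators, Rfx3 (25.3 TPM), a factor that binds the X-box, had -0.33 and Rfx2 (1.86 TPM) 0.23; Gmnc and Mcin, the upstream inducers of multiciliated cells, averaged 0.151 and 0.433 TPM, under the filter.
In 0 of the 13 comparisons did limma call a gene of any of the 12 lists, while 45 of their 125 tested genes were at an unadjusted p under 0.05 in at least 1 comparison, against 59.1% of all genes. In males 19 of 19 other axoneme genes and 10 of 10 other ependymal genes had a lower mean with cocaine (medians -0.36 and -0.48), against 55.5% of all genes. In ovariectomized estradiol females 14 of 19 and 7 of 10 had a higher mean with cocaine (medians 0.12 and 0.21), against 14.8% of all genes. With estradiol in saline mice, 15 of 19 and 9 of 10 were lower (medians -0.33 and -0.36), against 24.4% of all genes. Mean sums of the other cilia lists did not all follow. Regulators averaged 35.3 TPM in male cocaine and 32.2 TPM in male saline mice, and dynein arm genes 172 and 173 TPM. In estradiol cocaine, estradiol saline and placebo saline mice, regulators averaged 20.0, 33.1 and 23.5 TPM and dynein arm genes 114, 161 and 128 TPM. Radial spoke and central pair genes averaged 86.3 and 99.7 TPM in those male groups, and 97.3, 87.9 and 92.3 TPM in those ovariectomized groups.

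Neighbouring tissues were measured by their own markers. Choroid plexus genes, which share the ventricle, had a median rho of 0.06 with the mean of the 8, and 3 of 10 reached 0.5: Calml4 at 0.82, Folr1 at 0.75 and Otx2 at 0.53, while Ttr, its most abundant transcript, had 0.34 and ranged from 0.368 to 154 TPM. Septal neuron markers had a median of 0.28 with 0 of 5 at 0.5, and subventricular zone genes 0.08 with 1 of 11. Astrocyte (-0.13), cortical excitatory neuron (-0.12), striatal projection neuron (-0.05) and meningeal and vessel wall genes (0.03) had 0 genes at 0.5 or more, with these medians in brackets against the -0.16 of all genes. Striatal projection neuron markers summed to 2387 to 7767 TPM over the libraries, so the punches carry the tissue's defining markers. The choroid plexus sum ran from 16.3 to 61.9 TPM in estradiol cocaine mice, 37.0 to 70.8 TPM in estradiol saline mice and 22.2 to 204 TPM in placebo saline mice; its part in the members' differences was not tested.

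**Figure D5:**
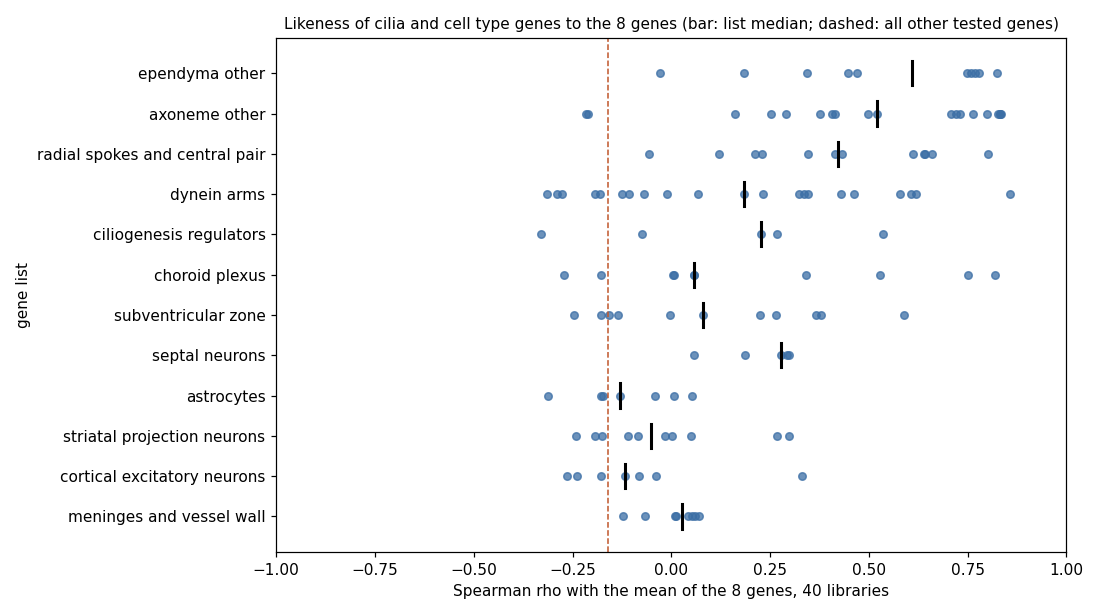
Spearman's rho over 40 libraries between each tested gene of 12 lists and the mean z-score of the 8 genes (horizontal axis, no units); points are genes, black bars list medians, and the dashed line is the median of all other tested genes, -0.16. Other ependymal and axoneme genes lie furthest right, with medians of 0.61 and 0.52, the septal neuron list has a median of 0.28, and the striatal, cortical and astrocyte lists lie between -0.13 and -0.05.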

How the data were processed

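RNA was measured in nucleus accumbens punches of 40 mice, 1 library each; per the labels' protocols, libraries came from an AmpliSeq kit and shared 1 sequencing lane. The deposited table is named for FPKM, but all 40 of the authors' columns sum to 1000000, so its values were treated as TPM; how the authors made them is not given in the sources used here. The tools listed, per the submitters' processing notes, are limma, DESeq2, Cuffdiff 2.2.0, Cufflinks 2.2.0, TopHat2 2.0.9 and Bowtie2 2.1.0.0, and the build is mm10. Of 23349 entries, 27 whose gene name had turned into a date (0.0934% to 0.272% of TPM per library) were left out.

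Groups came from the sample titles. Genes reaching 1 TPM in 5 or more libraries, 15196 in all, were fitted as log2(TPM + 0.5) with limma 3.58.1 (R 4.3.3; a mean per group, trended robust eBayes) in 13 comparisons. P-values were adjusted by Benjamini-Hochberg over all tested genes, threshold 0.05. A fold change on this scale understates changes of low genes. The fit was tested on simulated data. Those values were drawn independently for each gene, without shifts shared across a library. That test therefore does not cover the 4 libraries that stood apart. Pair correlations used 100000 permutations over 28 pairs. Transcript lengths are medians over GENCODE M21 basic coding transcripts, found for 93.8% of tested genes.

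The 8 genes and the 12 gene lists (147 symbols, 16 matched by an older name and 5 without a match) were chosen with earlier results of these data known. Named are the 8 genes, the 10 genes most like them, the 2 or 3 most abundant of a list, and Dynlrb1. The rho thresholds of 0.7 and 0.5, the length classes and other list genes named for a high rho were chosen after values were seen. Alternatives were pseudocounts of 0.1 and 1, no filter, centring on the median gene, ribosomal protein share as covariate, array weights, only the groups compared, leaving out 4 libraries and leaving out each library.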

Additional observations from a re-analysis of the deposited data

Results flagged for a closer look

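In 4 of the 64 sets of 5 mice (8 genes in 8 groups), the highest mouse stood away from the other 4 by more than Dixon's 95% critical value of 0.71 of the range; chance flags about 1 in 20 groups. Ccdc153 was at 13.3 TPM in intact female cocaine mouse 72, against 0.345 to 3.02 TPM in the other cocaine females. Tmem212 was at 17.3 TPM in the same mouse, against 0 to 5.002 TPM. Foxj1 was at 8.74 TPM in ovariectomized estradiol saline mouse 124, against 4.99 to 5.87 TPM in the others of its group. Rarres2 was at 137 TPM in ovariectomized placebo saline mouse 137, against 30.3 to 43.4 TPM; that library is among the 4 least correlated with the rest.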

How the results depend on the processing

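No paired analysis was possible because the animal numbers are unique and the groups share no replicate numbers. Centring on the median gene moved the median interaction of estradiol and cocaine over the 8 genes to 1.97, against 1.19. That median was 0.60 with array weights, 0.96 without the 4 least correlated libraries and 1.06 with the ribosomal covariate. For cocaine in estradiol mice, centring put 6 of the 6 genes other than Ak8 and Ccno higher at an unadjusted p under 0.05, against 13.3% of all genes, and the ribosomal covariate 1 of 6, against 1.17%. With array weights 1 member was called between placebo and intact saline females, Ak8, as a description, among 6802 genes called, against 0. Leaving out 1 library gave 0 to 4 members called for cocaine in estradiol mice (0 to 6105 of 15196 genes, in either direction). With array weights the genes called were 8 in males, 23 in intact females, 18 and 14 between the sexes in saline and cocaine mice, and 1 in each interaction. Fits of only the groups compared called 1 gene for cocaine in males and 0 between the sexes in cocaine mice, against 0 and 5. Without the filter, 1 gene was called for cocaine in placebo females, for estradiol in saline mice and between placebo and intact females. Leaving out 1 library moved the median of the 8 for cocaine between -1.12 and -0.61 in males, -0.32 and 0.03 in intact females, -0.54 and -0.12 in placebo females and 0.60 and 1.18 in estradiol females, and that for estradiol between -1.06 and -0.63 in saline mice and -0.03 and 0.70 in cocaine mice. Of the 10 most similar genes, 8 or 9 stayed in the top 10 under the other measures. The cause of these changes was not tested. Without read depth, no interval from counting can be given.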
